A study of Danio rerio with 12 samples.

Results

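Expression of 3 genes that encode myeloid transcription factors was followed across macrophages and brain endothelial cells of zebrafish larvae. Their rows were taken by Ensembl identifier from a table of 33737 genes: SPI1 (ENSDARG00000000767), which encodes PU.1; CEBPA (ENSDARG00000036074), which encodes C/EBP alpha; and CEBPB (ENSDARG00000042725), which encodes C/EBP beta. All 3 passed the filter on low read numbers, as did 17613 genes in all. The study's title concerns macrophages that repair ruptured brain vessels by adhering to the broken ends and pulling on them. Its 12 libraries formed 6 groups of 2, with macrophages or endothelial end cells sampled without injury (control), when a macrophage had reached the lesion (arrival) and while it pulled (traction).

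Endothelial cells carried Tg(flk1:DenNTR; coro1a:eGFP) and were labelled Dendra2(red), with the converted protein under the endothelial flk1 promoter. Macrophages carried Tg(coro1a:Kaeda; flk1:eGFP) and were labelled Kaeda(red), with the converted protein under the coro1a promoter, which is active in leukocytes and not in macrophages alone. Both lines are given as strain ABGO and the tissue as brain, and cells of all groups were marked with a laser that turns the protein red. About 80 cells in 20 animals were converted, so the cells of several animals were pooled, and whether replicates stem from separate animals is not stated. P-values therefore measure the spread between these libraries, which may be technical.

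PU.1 is an ETS-family factor that opens and binds enhancers of myeloid genes, and loss of it in mice removes macrophages. The C/EBP proteins are basic leucine zipper factors: C/EBP alpha is needed in mice for progenitors to enter the granulocyte and monocyte lineages, and C/EBP beta takes part in monocyte survival and in the response to inflammation. Zebrafish keep a second copy of several genes of the myeloid lineage, PU.1 among them.

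The RNA of all 3 genes was abundant in macrophages, with 1 library as an exception for CEBPA. Expression is given as RPKM, a read number divided by the length of the gene and by the library's total in genes, which allows levels of different genes to be set side by side. SPI1 was at 342 and 171 RPKM in the control macrophage libraries, 297 and 523 at arrival and 440 and 239 at traction, replicate 1 first in each pair. The 6 values lay within 3.06-fold of each other, and the highest and the lowest came from arrival and from control. CEBPB was at 218 and 402 RPKM in control, 613 and 638 at arrival and 253 and 484 at traction, a range of 2.92-fold. Both arrival libraries were the highest of the 6.

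CEBPA was at 65.0 and 0.707 RPKM in control, 168 and 196 at arrival and 107 and 116 at traction. In control replicate 2 it rested on 25 reads, where the other 5 macrophage libraries had between 5290 and 21014. That library was the shallowest, with 12283046 reads in genes, and it held 4968 reads of SPI1 and 7482 of CEBPB.

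**Figure D1:**
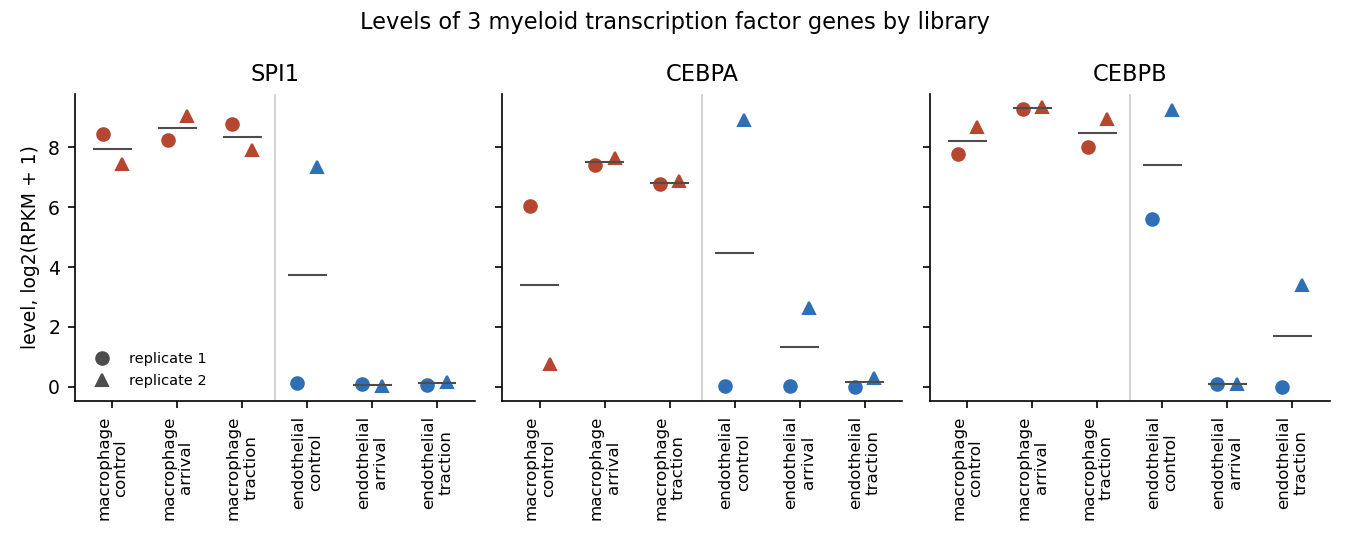
Level of each of the 3 genes on a log2(RPKM + 1) axis, 1 panel a gene, with macrophage groups in red and endothelial groups in blue, circles for replicate 1, triangles for replicate 2 and a line at the mean of each pair. SPI1 and CEBPB are high in all 6 macrophage libraries, CEBPA drops to 0.707 RPKM in macrophage control replicate 2, and endothelial control replicate 2 holds all 3 at 162 to 605 RPKM.

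In 5 of the 6 endothelial libraries the genes were near the limit of detection, with exceptions for both C/EBP genes. SPI1 rested on 3 to 8 reads in those 5 libraries, between 0.0321 and 0.119 RPKM. CEBPB was at 47.2 RPKM in control replicate 1 and 9.57 in traction replicate 2, and on 0 to 4 reads in the other 3. Epidermal markers, with 14 members found, summed to 2169 RPKM in traction replicate 2 and 133 to 192 in the other endothelial libraries. Their part in the CEBPB value was not tested. CEBPA reached 5.21 RPKM in arrival replicate 2 on 592 reads and was at or below 0.233 in the other 4.

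Endothelial control replicate 2 differed from the other endothelial libraries in SPI1, CEBPA and CEBPB, and this has to be known before the cell types are compared. It held 162 RPKM of SPI1 on 11977 reads, 475 RPKM of CEBPA on 42680 reads and 605 RPKM of CEBPB on 28610 reads. CEBPA was higher there than in any macrophage library, CEBPB lay within the macrophage range, and SPI1 lay just under the lowest macrophage value of 171. The macrophage marker list, with 30 members found, summed to 1539 RPKM in this library, against 13.2 to 221 in the other 5 endothelial libraries and 4213 to 15186 in macrophages. Its endothelial marker list, with 21 members found, summed to 1416 RPKM, inside the 268 to 4378 of the other endothelial libraries, where macrophages had 15.1 to 381. Erythroid markers, with 15 members found, summed to 28373 RPKM in it. Endothelial arrival replicate 1 had 23.3 RPKM of them, the remaining endothelial libraries 18601 to 65930 and macrophages 1.67 to 131. The cell type differences of the 3 genes and the counts of listed genes called between cell types are given with and without endothelial control replicate 2. So are the endothelial stage differences and the correlations over all libraries.

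The question which of these genes separate macrophages from endothelial cells was put to a limma model on log2(RPKM + 1). It had stage as a term and covered all 12 libraries. Each cell type came from its own line and reporter, so differences between lines and between cell types cannot be told apart. SPI1 and CEBPB were higher in macrophages, and CEBPA did not pass the adjusted p threshold of 0.05. Of all genes tested, 2.82% were called, 2.15% as higher and 0.676% as lower. SPI1 was higher by 6.99 ± 1.15 (SE) on the log2 scale, with a Benjamini-Hochberg adjusted p of 4.11e-04 from limma, and CEBPB by 5.58 ± 1.14 (limma adjusted p = 0.00419).

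The groups did not overlap for SPI1, as for 1.94% of tested genes on the higher side, and they overlapped for CEBPA and CEBPB. The gap was narrow, 162 RPKM in endothelial control replicate 2 against 171 in macrophage control replicate 2. CEBPA was higher by 3.93 ± 1.45 with a limma adjusted p of 0.208. Without endothelial control replicate 2 its difference was 5.66 ± 1.2 (limma adjusted p = 0.00414). Without macrophage control replicate 2 it was 5.21 ± 1.37 (limma adjusted p = 0.0473). These libraries held the highest endothelial and the lowest macrophage value of CEBPA, so leaving them out had to enlarge its difference. Of the 12 fits with 1 library left out, only these 2 called CEBPA, and the limma adjusted p ran up to 0.443. A voom model on reads, which works on log2 counts per library size, also called it, at 6.70 ± 1.99 (adjusted p = 0.0227), as one of the 4.16% of genes it called higher.

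CEBPB lost its call under voom, at 4.72 ± 1.59 (adjusted p = 0.0596), and without 3 libraries, at 4.47 ± 1.32 (limma adjusted p = 0.149). Those were macrophage traction replicate 1, endothelial arrival replicate 2 and endothelial traction replicate 1, where photoreceptor and lens markers summed to 2065, 33939 and 45137 RPKM against at most 295 in the other libraries. Without endothelial control replicate 2 the differences of SPI1 and CEBPB were 8.24 ± 0.96 and 6.64 ± 1.05, with limma adjusted p of 4.23e-06 and 2.14e-04. That library held the highest endothelial value of both genes, so leaving it out had to enlarge both differences and adds no support. In these bulk libraries, fewer cells of a type and less RNA of a gene per cell cannot be told apart.

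**Figure D2:**
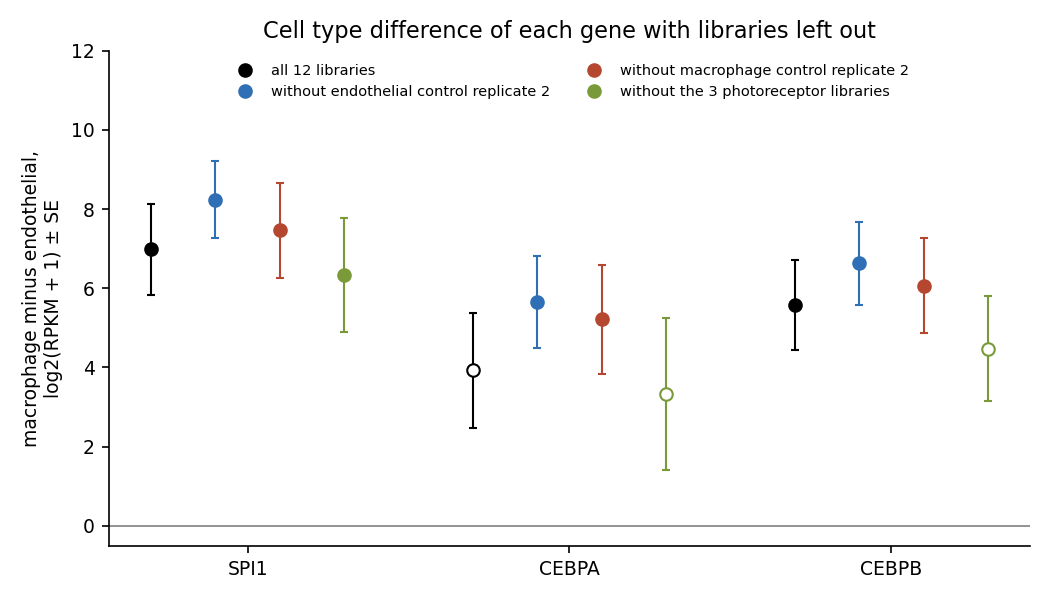
Macrophage minus endothelial difference of each gene on the log2(RPKM + 1) scale, with bars of 1 SE, from all 12 libraries (black), without endothelial control replicate 2 (blue), without macrophage control replicate 2 (red) and without the 3 libraries rich in photoreceptor RNA (green); filled points have a limma adjusted p below 0.05. SPI1 stays filled in every setting shown, and CEBPA is open at 3.93 with all libraries and filled at 5.66 without endothelial control replicate 2.

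The 3 genes stood in different proportions in the libraries that expressed them. Their summed RPKM ran from 573 to 1357 in the 6 macrophage libraries and was 1243 in endothelial control replicate 2. SPI1 made up 27.6% to 55.0% of this sum in macrophages and 13.1% in that endothelial library, where CEBPA made up 38.2% against at most 15.6% in macrophages. The ratio of CEBPA to CEBPB was 0.239 to 0.423 in 5 macrophage libraries, 0.00176 in control replicate 2 and 0.785 in endothelial control replicate 2. The ratio of spi1a, the other PU.1 gene, to SPI1 was 0.281 to 1.64 in macrophages and 1.27 in endothelial control replicate 2, inside the macrophage range.

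Within macrophages the genes also differed in how much they varied. The SD of log2(RPKM + 1) over the 6 libraries was 0.59 for SPI1 and 0.65 for CEBPB, below the medians of 0.87 and 0.84 among genes of like level. It was 2.58 for CEBPA, where 82.1% of 458 genes of like level had a smaller SD, but this rested on control replicate 2. Over the other 5 macrophage libraries the SD was 0.62 for CEBPA, 0.45 for SPI1 and 0.72 for CEBPB. The medians among genes of like level were then 0.78, 0.65 and 0.65, so CEBPB lay above its median. A smaller SD was found for 26.1% of 333 genes of like level for CEBPA, 24.6% of 126 for SPI1 and 59.8% of 102 for CEBPB. Ordered by RPKM within a library, CEBPB ranked 118 to 359 in macrophages and SPI1 166 to 366. CEBPA ranked 433 to 1047 in 5 libraries and 7622 in control replicate 2.

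**Figure D3:**
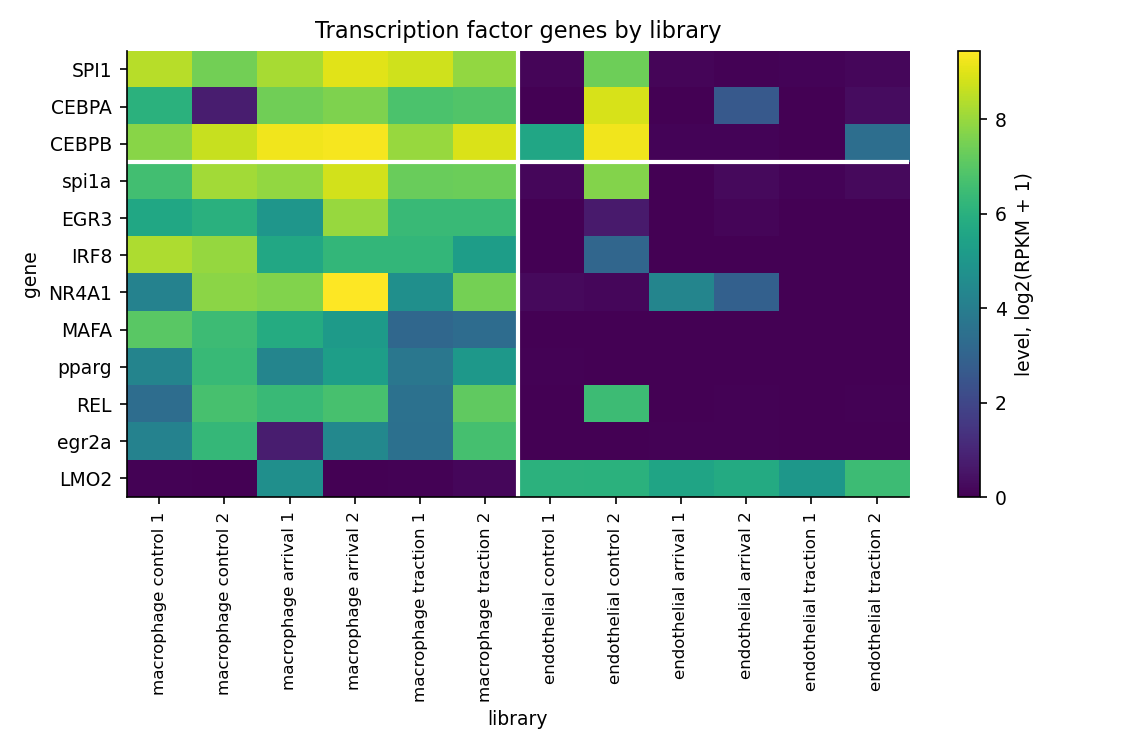
Level as colour, on the log2(RPKM + 1) scale, of the 3 genes (upper block) and the 9 other transcription factor genes that passed the test between cell types (lower block) in the 12 libraries, macrophages to the left of the white line. SPI1, spi1a, CEBPA, CEBPB and REL are bright in endothelial control replicate 2, while MAFA, pparg, egr2a, EGR3 and NR4A1 are at or below 0.591 RPKM there.

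Among other transcription factor genes of the myeloid and blood lineages, 103 of 120 listed entries were found and 86 were tested. Between cell types 8 were higher in macrophages, with limma adjusted p from 4.58e-04 to 0.0401, and 1 was lower. Of all genes tested, 2.15% were called higher and 0.676% lower. The median difference was 0.68 over the 86 beside 0.19 over all genes tested. A second copy of PU.1, spi1a (ENSDARG00000067797), was higher by 6.28 ± 1.19. It was at 96.2 to 451 RPKM in macrophages, 205 in endothelial control replicate 2 and at most 0.170 in the other endothelial libraries, so both PU.1 genes were high in that 1 endothelial library. Without that library 12 factors were called higher and 1 lower, all 9 called with the 12 libraries among them. Of the 17613 genes tested, 413 were then called higher and 109 lower. The differences of spi1a and IRF8 were 7.57 ± 0.99 and 6.41 ± 1.03. Endothelial control replicate 2 held the highest endothelial value of both, so leaving it out had to enlarge them. The 4 that passed newly were IRF5, elf1, egr1 and NR4A3, with limma adjusted p from 0.0154 to 0.0467.

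MAFA, a large Maf gene, was higher by 5.16 and was at 131 and 88.8 RPKM in control macrophages, 55.1 and 34.8 at arrival and 7.89 and 9.12 at traction. Every injured macrophage library lay below both controls, as for 5.71% of tested genes, and its limma adjusted p for traction against control was 0.828.

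IRF8, which encodes a factor that directs progenitors to the macrophage fate in zebrafish, was higher by 6.08 ± 1.01. It was at 309 and 244 RPKM in control macrophages and at 37.7 to 74.7 in the 4 injured ones, so that no injured library reached a control, again as for 5.71% of tested genes. In endothelial control replicate 2 it was at 7.61 RPKM. Its stage differences were -2.15 ± 1.71 at arrival and -2.35 ± 1.71 at traction, with limma adjusted p of 1 and 0.879. The immediate early genes EGR3 and NR4A1 were higher by 6.09 ± 1.01 and 5.61, and egr2a by 4.28. pparg, a nuclear receptor gene of lipid handling, was higher by 4.83, and REL, an NF-kappa B subunit gene, by 4.54 ± 1.24.

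LMO2, which encodes a cofactor of blood and vessel development, was the only listed factor called lower in macrophages, by -4.99 ± 1.08. It was at 30.7 to 88.1 RPKM in the 6 endothelial libraries, endothelial control replicate 2 included at 65.3, and at 25.1 RPKM in macrophage arrival replicate 1 against at most 0.109 in the other 5. Of 12 tested erythroid markers, 5 were also called lower in macrophages, as were 0.676% of all genes tested. Without endothelial control replicate 2, 4 were. The part of blood cells in the LMO2 reads was not tested. The remaining C/EBP genes did not pass the test. CEBPD had a difference of -2.07, and cebpg one of 0.16; RefSeq places cebpg next to cebpa in assembly GRCz12tu.

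Genes listed as targets of such factors in myeloid cells were higher in macrophages in larger numbers. The list shares genes with the macrophage marker list, such as apoeb, MFAP4 genes, tnfb and ctss2.1, so high macrophage levels were partly built into it. Whether PU.1 or the C/EBP proteins regulate these genes here was not tested. Of 58 listed targets of myeloid transcription factors, 48 were found and 43 tested, of which 26 were higher and 0 lower. Of all genes tested, 2.15% were called higher and 0.676% lower. The median difference was 4.36, beside 0.19 over all genes tested. With endothelial control replicate 2 left out, 25 were higher, all of them among the 26, and 0 lower. Of the 17613 genes tested, 413 were then called higher and 109 lower. The 6 with the smallest p included apoeb, a lipid carrier of microglia, higher by 9.65, and 2 MFAP4 genes, ENSDARG00000090783 and ENSDARG00000088745, higher by 8.24 and 7.69. The others were tnfb, a tumour necrosis factor, higher by 7.85, and the cathepsins ctss2.1 and ctss2.2, higher by 7.92 and 6.71. At 1 RPKM or more stood 31 to 42 of the 48 in macrophages and 4 to 7 in the 5 endothelial libraries other than control replicate 2, which had 24.

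Of 37 growth factors and receptors of the lineage, 27 were found and 22 tested, and csf1rb was the 1 that passed, where 2.82% of all genes tested did. It encodes a receptor for the macrophage growth factor CSF1 and was higher by 5.28 ± 1.12 (limma adjusted p = 0.0059). In macrophages it was at 24.6 to 324 RPKM. Endothelial control replicate 2 had 66.0 RPKM, inside that range, and the other 5 endothelial libraries at most 0.0839. Without that library csf1rb was again the 1 that passed, with a difference of 6.17 ± 1.05. That library held the highest endothelial value of csf1rb, so leaving it out had to enlarge this difference.

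To see which myeloid genes endothelial control replicate 2 held, 95 tested genes were taken that reached 10 RPKM in all 6 macrophage libraries and at most 1 RPKM in the other 5 endothelial libraries. These cutoffs were chosen after values were seen, and the counts describe 1 library without a test. In it 19 genes were at or above their lowest macrophage value, 20 lay between that value and 1 RPKM, and 56 were at or below 1 RPKM. The first set held spi1a, csf1rb and the NADPH oxidase genes NCF1, at 707 RPKM, and cyba, at 372. The second held SPI1 and IRF8. It also held ctss2.1, at 76.2 RPKM, c5ar1, at 57.4, MPEG1, at 22.8, and cd68, at 17.8. Their lowest macrophage values were 229, 97.3, 209 and 131 RPKM. The third held EGR3, pparg, tnfb and the microglial genes havcr1 and SLC7A7. CEBPA and CEBPB missed the cutoffs and were not among the 95. CEBPA was at 0.707 RPKM in macrophage control replicate 2 and CEBPB at 47.2 in endothelial control replicate 1.

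The leukocyte genes CORO1A and LCP1 were at 704 and 357 RPKM in endothelial control replicate 2, where apoeb was at 0.0909 and P2RY12 and marco were at 0. Of the 19 macrophage markers called higher in macrophages, 6 reached their lowest macrophage value there, 3 lay between and 10 were at or below 1 RPKM. Of the 26 called targets, 13 reached it, 3 lay between and 10 were at or below 1 RPKM. The calls counted this library as endothelial, so genes high in it were less likely to be called. Both splits therefore lean to low values in this library, and the same split over all genes called higher is not given. The list of neutrophil and mast cell markers, with 11 members found, summed to 245 RPKM in this library. The other 5 endothelial libraries had 79.8 to 391 and macrophages 52.3 to 3378. At 1 RPKM or more stood 5 of the 11 in this library, 1 to 2 in the other 5 endothelial libraries and 2 to 9 in macrophages. Of the listed genes, 6 were at 0 in this library, lyz among them, and MMP9 was at 22.9 RPKM. Which cells gave the SPI1, CEBPA and CEBPB reads of this library was not tested.

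**Figure D4:**
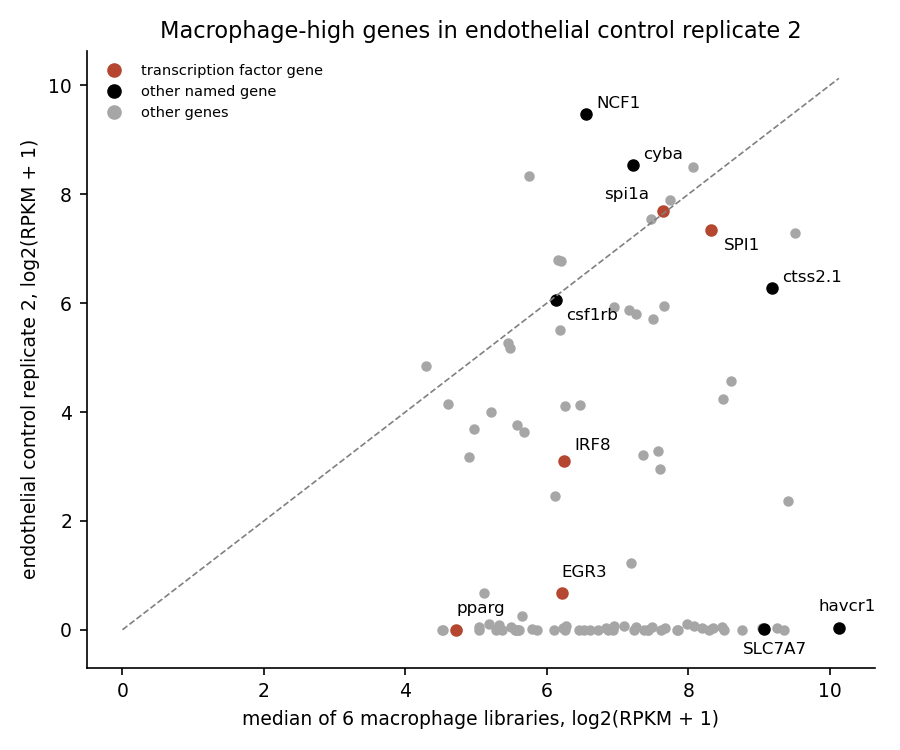
Level in endothelial control replicate 2 against the median of the 6 macrophage libraries, both as log2(RPKM + 1), for the 95 genes of at least 10 RPKM in all macrophages and at most 1 RPKM in the other 5 endothelial libraries; red points are transcription factor genes, black ones other named genes, and the broken line marks equal values. NCF1 and cyba lie above the line, spi1a on it and SPI1 somewhat below, while havcr1 and SLC7A7 lie at the bottom right.

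Genes whose level followed each member most closely over the 12 libraries were named as a description, since the 12 libraries fall into 2 cell types and genes of a library share its depth and handling. With SPI1, Pearson's r of log2(RPKM + 1) was 0.990 for ctss2.1, 0.989 for itgae.2 and 0.989 for zgc:64051, followed by 0.988 for c5ar1. The genes nearest to CEBPA were MAGT1 at 0.974, TMEM120A at 0.970 and CCR9 at 0.965, and those nearest to CEBPB were si:ch211-225b11.1 at 0.961, WAS at 0.957 and NCK1 at 0.928. In all, 13827 named genes were compared. Without endothelial control replicate 2 the r of these 10 genes ran from 0.932 to 0.997, though they had been picked for a high r with the remaining libraries included.

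Within the 6 macrophage libraries alone, the nearest genes were different: FAM120C to SPI1 at 0.981, RHOG to CEBPA at 0.999 and creb1a to CEBPB at 0.985, out of 13686 compared. Without macrophage control replicate 2 these were 0.964, 0.971 and 0.985, though the genes had been picked for a high r with the other 5 libraries included. Over 6 libraries, high values of r can arise by chance among so many genes, and this was not tested. Among the members in macrophages, r was 0.75 between SPI1 and CEBPA and 0.19 between CEBPB and CEBPA, but both rested on macrophage control replicate 2, and over the other 5 libraries they were 0.27 and 0.91. Between CEBPB and SPI1 it was -0.050, and -0.073 without that library.

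Lesion stages were then compared within each cell type, to ask whether the genes change as macrophages arrive and pull. No member passed in any of the 6 stage comparisons or in the 2 tests that set the stage change of macrophages against that of endothelial cells. Over all genes limma called 0 in each of these 8 comparisons except traction against arrival in macrophages. There it called 1 gene, 0.00568% of those tested: si:rp71-1c10.11 (ENSDARG00000096721), named after its values were seen, at 927 and 5126 RPKM in traction and 0 in both arrival libraries. The unadjusted limma p was below 0.05 for 591 to 1049 genes in each of the 8 comparisons. With no change, a share of 0.05 of the 17613 tested genes is expected there. Only macrophage traction against control, at 1049, lay above that share. Voom called 50 to 471 genes.

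In macrophages, CEBPA and CEBPB were higher in both arrival libraries than in both controls, as were 12.5% of tested genes, and SPI1 overlapped. For CEBPA the difference was 4.1 ± 2.41 (limma adjusted p = 1). Without control replicate 2, where it was at 0.707 RPKM, it was 1.47 ± 2.93. That left control replicate 1, where epidermal markers had their highest macrophage sum, 1459 RPKM. With both controls the arrival difference was 1.08 for CEBPB and 0.70 for SPI1. At traction CEBPA was above both controls again, as were 19.1% of tested genes, by 3.41 ± 2.41 (limma adjusted p = 0.877), and by 0.77 ± 2.93 without control replicate 2.

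Between traction and arrival, both C/EBP genes were lower in both traction libraries, as were 9.39% of tested genes. CEBPA differed by -0.70 and CEBPB by -0.84, beside -0.28 for SPI1. Macrophage traction replicate 1 also stood apart in neutrophil genes, with lyz at 1447, mmp13a at 426 and MMP9 at 295 RPKM, where the other 5 macrophage libraries had at most 1.22, 7.01 and 0.0326. Its SPI1 and CEBPB, at 440 and 253 RPKM, lay on opposite sides of those of traction replicate 2, at 239 and 484. The part of these neutrophil genes in the stage values was not tested.

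In endothelial cells, the largest differences were of CEBPB. It was at 47.2 and 605 RPKM in control, at 0.0760 and 0.0669 at arrival and at 0 and 9.57 at traction. Both controls were thus above all injured libraries. Arrival replicate 2 and traction replicate 1 were photoreceptor-rich, with endothelial markers at 502 and 268 RPKM against 1416 to 4378 in the other endothelial libraries. Without the photoreceptor-rich libraries, which left single libraries in both groups, CEBPB differed by -7.31 at arrival and -4.01 at traction. With all 12 libraries it differed by -7.32 and -5.72, and without endothelial control replicate 2 by -5.49 and -3.89. Both arrival libraries lay below both controls for CEBPB and SPI1, as for 11.8% of tested genes, though the lower SPI1 control rested on 4 reads. Both traction libraries lay below both controls for CEBPB alone among the 3 genes, as for 14.5% of tested genes. The arrival difference was -7.32 ± 1.60 with an unadjusted p of 2.66e-04 and an adjusted p of 0.824 in limma. In the voom fit it was -11.56 with an adjusted p of 0.00710, where voom called 0.466% of genes lower, and in the authors' deposited table its p was 0.00198 and its adjusted p 1. Without endothelial control replicate 2 it was -5.49 ± 1.73 (limma adjusted p = 0.471), and control replicate 1 alone had 1363 reads of CEBPB against 3 and 4 at arrival.

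The endothelial stage differences of SPI1 and CEBPA against control depended on endothelial control replicate 2. SPI1 differed by -3.66 ± 1.96 at arrival and -0.04 without it, and by -3.62 at traction and -0.0037 without it. CEBPA differed by -3.13 at arrival and -4.31 at traction, and by 1.3 and 0.13 without it. Between traction and arrival, which involves no control library, SPI1 differed by 0.04 and CEBPA by -1.18. For CEBPB the arrival change of macrophages exceeded that of endothelial cells by 8.39 ± 2.26, with an unadjusted p of 0.00173 and an adjusted p of 0.949 in limma. The excess was 6.57 ± 2.23 (limma adjusted p = 0.975) without endothelial control replicate 2. In voom the excess was 12.68 with an adjusted p of 0.0273, where 0.165% of genes were called on that side.

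**Figure D5:**
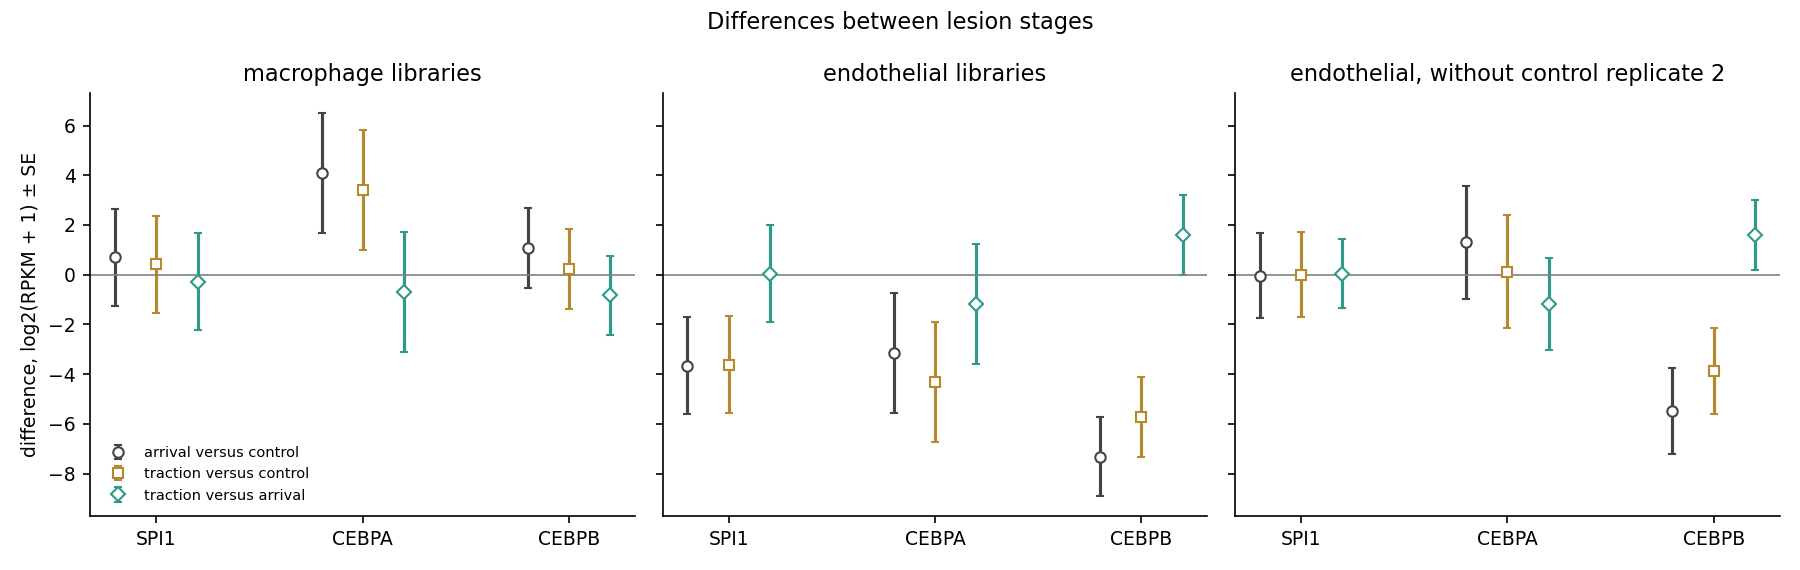
Differences between stages on the log2(RPKM + 1) scale with bars of 1 SE for the 3 genes, in macrophages, in endothelial cells and in endothelial cells without control replicate 2; circles are arrival minus control, squares traction minus control and diamonds traction minus arrival. Open points mark that none had a limma adjusted p below 0.05, and endothelial SPI1 goes from -3.66 to -0.04 at arrival and CEBPB from -7.32 to -5.49.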

How the data were processed

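Per the labels' protocols, converted cells were sorted from dissociated heads, Smart-seq2 libraries were made and read as paired ends. The submitters' processing notes list TopHat2 2.0.12, Bowtie2 2.2.3, DESeq 1.16.0 and HTSeq 0.6.0, without their roles; the genome build was not given in the sources used here. The authors deposited RPKM per library and, in comparison tables, group means as a size-factor normalized signal with their p-values. Read numbers per gene, solved from the RPKM and the deposited group means together, ran from 12283046 to 39447004 in genes per library. No molecular identifiers are named, so read numbers cover counting error only.

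A gene was tested if 2 or more libraries had 10 reads or more of it, scaled to the median depth, and all libraries together 15. The design foresaw a count test if counts per library were deposited; since RPKM were, limma 3.58.1 (R 4.3.3, trend, robust) was fitted to log2(RPKM + 1) over all 12 libraries, which understates changes of low genes, with Benjamini-Hochberg adjustment over 17613 genes. Alternatives were a pseudocount of 0.1, no filter, quantile normalization, the replicate number as a block, voom on reads with TMM, and libraries left out. Fits were run on simulated data in which only differences between cell types were set. This does not bear on real stage changes or on a library of mixed RNA. The members and lists were chosen with earlier results of these data known. Of the 4 rows chosen, 1 is not reported here. Genes named by a fixed rule are the members, listed genes that pass between cell types, within fixed maxima by p, and the genes of highest correlation. Others, such as lyz, mmp13a, MMP9, CEBPD, cebpg, cd68, NCF1 and cyba, fell outside this rule and were named with their values known. Upper-case symbols may stand for either zebrafish copy, and reads of similar copies may be split.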

Additional observations from a re-analysis of the deposited data

Results flagged for a closer look

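In 3 cases a single library stood apart from the other 5 of its cell type, by a gap to its nearest neighbour that exceeded Dixon's 95% critical share of the whole range on the log2(RPKM + 1) scale. Chance flags about 1 in 20 groups. That endothelial control replicate 2 held leukocyte RNA was known when the 3 genes were chosen, so what stands out there is a description and no independent evidence. SPI1 in endothelial control replicate 2 was the highest of the endothelial libraries, with a gap of 0.984 of the range. CEBPA in the same library was the highest, with a gap of 0.704. CEBPA in macrophage control replicate 2 was the lowest of the macrophage libraries, with a gap of 0.770.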

How the results depend on the processing

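Between cell types, SPI1 passed under all 19 alternatives, CEBPB under 16 and CEBPA under 3. CEBPB did not pass without the filter, at 5.58 (limma adjusted p = 0.0676), in voom, at 4.72, and without the photoreceptor-rich libraries, at 4.47. CEBPA passed in voom, at 6.70, and when macrophage control replicate 2 or endothelial control replicate 2 was left out; leaving out each library in turn it ran from 3.32 to 5.66. Without endothelial control replicate 2 and the photoreceptor-rich libraries together, a setting chosen after seeing the data, its limma adjusted p was 0.0561. Quantile normalization moved the median of all genes from 0.19 to -0.06. The 497 genes called between cell types became 307 without the filter, 1089 in voom, 190 without the photoreceptor-rich libraries and 273 without these and endothelial control replicate 2, and 301 to 522 with 1 library left out, the lowest without macrophage arrival replicate 2.

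In the stage comparisons of macrophages, voom called 220 genes for arrival against control, 471 for traction against control and 304 for traction against arrival. With 1 library left out the counts ran from 0 to 79, 0 to 245 and 0 to 253; the highest came without macrophage control replicate 1, traction replicate 1 and traction replicate 1. The 1 gene of traction against arrival became 0 with a pseudocount of 0.1, without the filter and with quantile normalization. Without the photoreceptor-rich libraries 994 and 988 genes were called for traction against control and against arrival and 772 for the traction change between cell types, with single libraries left in 3 groups. Voom called 297, 307 and 228 genes in the endothelial comparisons of arrival and traction against control and traction against arrival, and 50 and 66 for the arrival and traction changes between cell types.

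Of 432 stage values of the 3 genes under alternatives, 415 kept direction and side of the threshold, 15 changed sign and 2 passed newly, both CEBPB in voom. For macrophage traction against control the sign changed for SPI1 (-0.015) without the photoreceptor-rich libraries and for CEBPB (-0.22) with quantile normalization. It changed for endothelial traction against arrival of SPI1 (-0.027) with quantile normalization and of CEBPA (0.28) without the photoreceptor-rich libraries. The causes were not tested.

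With each library left out in turn, macrophage traction against control ran from -0.077 to 0.92 for SPI1, -0.23 to 0.71 for CEBPB and 0.77 to 6.04 for CEBPA, whose arrival against control ran from 1.47 to 6.74; both ends of each CEBPA range leave out a control library. Traction against arrival of macrophages ran from -0.72 to 0.16 for SPI1. In endothelial cells arrival against control ran from -7.57 to 1.3 and traction against control from -8.74 to 0.13 for CEBPA. Traction against arrival ran from -0.0041 to 0.084 for SPI1, -0.10 to 3.30 for CEBPB and -2.48 to 0.13 for CEBPA. A group left with 1 library was assumed to vary like the other groups.

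The replicate numbers gave little sign of pairing. Deviations of same-numbered libraries had a median correlation of 0.03 over 15 pairs of groups, from -0.21 to 0.14. Of these, 2 were above 0.1 and 1 below -0.1. This cannot show that the replicates were unpaired. With the replicate block 508 genes were called between cell types, and CEBPA stayed at 3.93 (limma adjusted p = 0.218). The block changed no call of the 3 genes.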
